A study of Mus musculus with 20 samples.

Results

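The genes described here encode subunits of class I phosphoinositide 3-kinase (PI3K) and 2 phosphatases that act on its lipid product or on a lipid made from it. They were chosen by gene symbol and number 9 of the 27465 genes listed in the 2 deposited tables. They are the catalytic subunits Pik3cd and Pik3cg, the class IA regulatory subunits Pik3r1, Pik3r2 and Pik3r3, the class IB regulatory subunits Pik3r5 and Pik3r6, and the inositol lipid phosphatases Inpp5d and Inpp4b. All 9 were listed in each table. Tests were limited to genes at a normalized count of 10 or more in at least 4 acute or at least 5 survival libraries; 9 members passed in the acute arm and 8 in the survival arm, where Pik3r6 was left out.

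RNA came from 20 spleen samples of sub-lethally irradiated mice that had received, by vein, mouse T-cell acute lymphoblastic leukemia (T-ALL) carrying a conditional allele of Acly, the gene of ATP-citrate lyase. Every group, control and knockout (KO), received this conditional leukemia and corn oil by intraperitoneal injection, and the KO groups also received 3 mg of tamoxifen per mouse in that oil. In the acute arm, 6 control and 4 KO samples were collected 72 h after mice with overt leukemia were treated. In the survival arm, 5 control and 5 KO samples came from mice treated 48 h after transplantation and collected at the humane endpoint. Tamoxifen and deletion cannot be told apart in this design, and the labels name neither the Cre driver, the deleted exons, nor the ages of the mice. The tissue was strained and freed of red cells by lysis, with no sort for leukemic cells named, so each library also holds RNA of the host's own cells. The labels do not state that each library is a separate mouse, that none was pooled, or how many leukemias were transplanted, so p-values measure the spread between libraries.

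Class I PI3K phosphorylates the membrane lipid PIP2 to PIP3, which recruits kinases such as AKT and the TEC family to the membrane. A catalytic p110 subunit works with a regulatory subunit: p110δ (Pik3cd) binds p85 or p55 proteins and responds to antigen, cytokine and costimulatory receptors, while p110γ (Pik3cg) binds p101 or p84 and responds to G-protein-coupled receptors, including chemokine receptors. Both catalytic subunits are found mainly in leukocytes, and the pathway is a common route to growth and survival in T-ALL. SHIP1 (Inpp5d) removes the 5-phosphate of PIP3, and the 4-phosphatase encoded by Inpp4b acts on the product, PI(3,4)P2.

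Some facts of the whole series bear on the members. Acly ranged from 7406 to 8280 normalized counts in acute controls and was 5226, 6228, 6402 and 4823 in KO 1 to 4, a fall to 73.3% of control in the means (exact two-sided permutation p = 0.00476, n = 6 and 4). In the survival arm it was 7922, 7758, 7396, 7544 and 8825 in controls and 4017, 2174, 3523, 3025 and 2718 in KO libraries, 39.2% of control (exact two-sided permutation p = 0.00794, n = 5 and 5). KO and control did not overlap in either arm, although the acute log2 fold change of Acly was -0.08 (adjusted p = 0.654) after scaling to the T-cell receptor beta constant genes Trbc1 and Trbc2. Libraries totalled 19432235 to 20731983 normalized counts in the acute table and 19998354 to 21623571 in the survival table. T-lineage RNA was present in every library, with Cd3e, a T-cell receptor signalling chain, at 7233 to 10448 normalized counts. This level does not separate leukemic from host T cells. In the acute arm T-lineage markers were lower in the KO (17 of 18 called lower and 0 higher; summed 179413 to 239707 against 269349 to 277903 in controls). Monocyte and macrophage markers were higher (16 of 16; 22164 to 65728 against 4150 to 7554), as were neutrophil (17 of 17; 185026 to 622939 against 12346 to 51196), basophil and mast cell (5 of 5; 700 to 1634 against 51.5 to 163), NK (8 of 8 tested; 580 to 1581 against 161 to 296), B-cell (11 of 12; 1209 to 2741 against 509 to 1040) and plasma-cell markers (5 of 7 tested; 7006 to 11023 against 4593 to 5432). Of the remaining lists, dendritic markers were higher for 3 of 7 tested (302 to 641 against 140 to 253) and megakaryocyte markers for 2 of 6 tested (229 to 474 against 147 to 329). Stromal and endothelial markers were higher for 1 of 8 tested (4611 to 5323 against 4343 to 7145), and limma called 0 of 11 erythroid markers, with 5 at an unadjusted p under 0.05 (11090 to 44797 against 12251 to 26242). No listed marker was at 0 in all libraries of a group. A score over the non-T lists was highest in acute KO libraries 2 (1.56) and 3 (1.28), was 0.44 and 0.75 in the other KO libraries, and ran from -1.02 to -0.19 in acute controls. In the survival arm limma called 0 genes of any marker list.

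In the acute arm, Pik3cd, Pik3cg, Inpp5d and Inpp4b rose in the KO, Pik3r3 fell, and Pik3r1, Pik3r2 and Pik3r5 were not called. These are the 8 members that met the filter on low values in the controls alone. Pik3r6 was also called higher, but only 3 of its control libraries reached a normalized count of 10, so it was tested only through the KO libraries in which it was high. The test was limma on log2(normalized count + 1) with Benjamini-Hochberg adjustment over all 16363 genes tested, at an adjusted p under 0.05. Of all genes tested, 31.4% were called, 16.7% higher and 14.7% lower. The median log2 fold change was 0.21 over the 8 members and -0.02 over all genes. At an unadjusted p under 0.05 there were 6 of the 8, against 41.6% of all genes. Groups did not overlap for 4 of the 8, Pik3r3 on the lower side and the others on the higher, against 22.7% of all genes tested (12.7% higher and 9.94% lower). Since the members were chosen with earlier results of these data known, these shares describe the set and do not test it. With only bulk RNA, fewer cells of a type and less RNA per cell cannot be told apart.

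**Figure D1:**
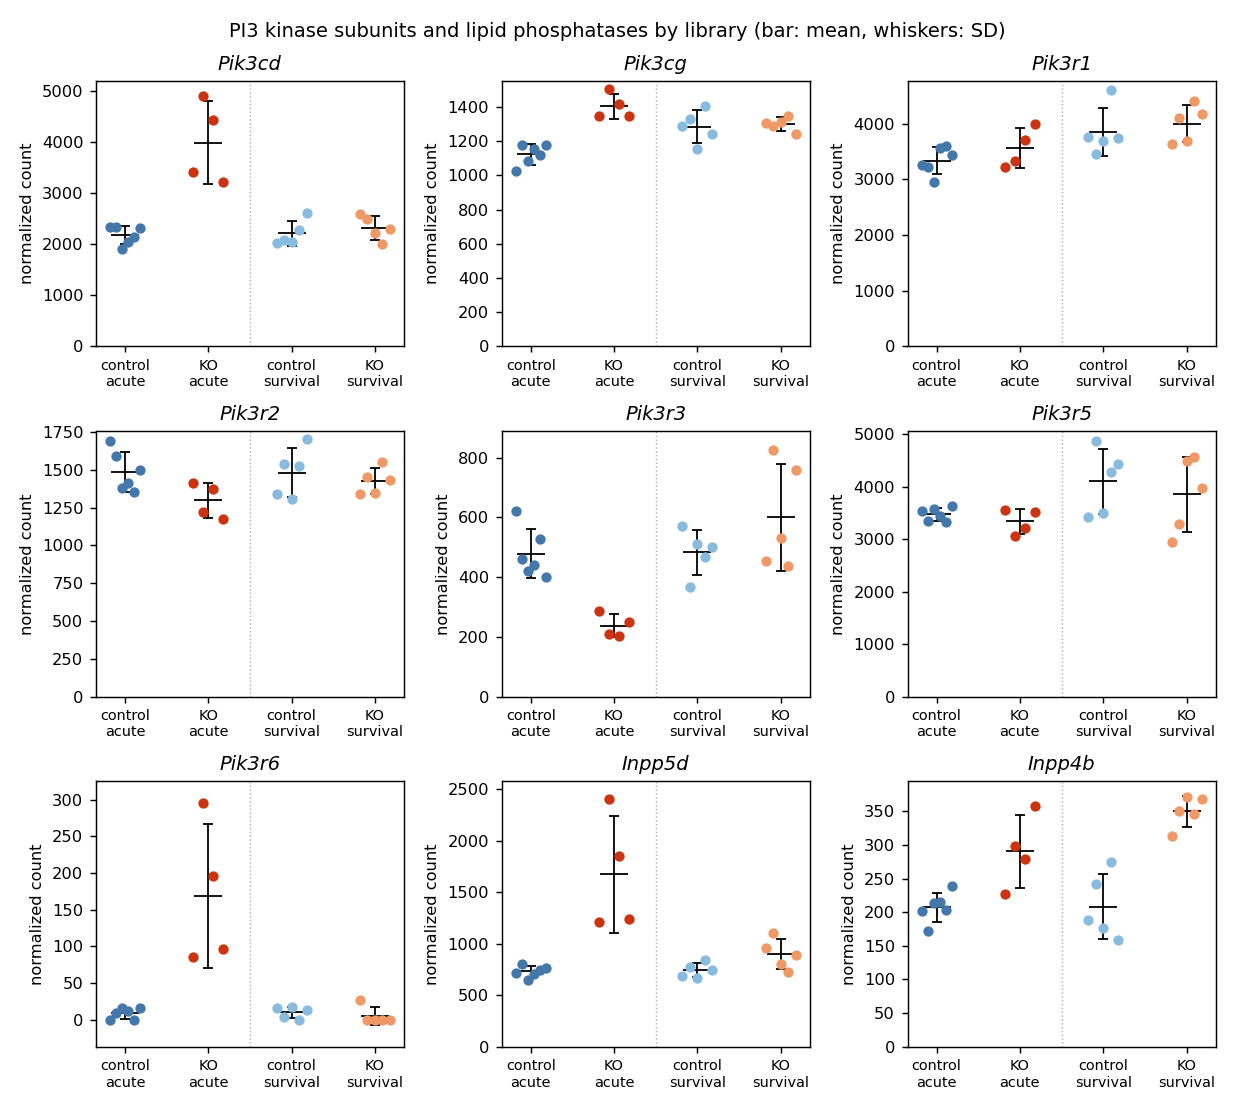
Normalized counts (vertical axes, starting at or just under 0) of the 9 members in each library of the 4 groups; each point is 1 library, the bar is the group mean and whiskers are the SD. Acute KO libraries lie above acute controls for Pik3cd, Pik3cg, Pik3r6 and Inpp5d and below them for Pik3r3, while in the survival arm KO and control separate only for Inpp4b; the 2 arms were normalized separately.

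Sequence upstream of the start sites is shown for 3 of the members that rose together in the acute arm. RefSeq promoter windows of GRCm38.p6, the 250 bases before each start, were found for 8 of the 9 members, in 14 windows. They were searched on both strands for GAGGAA, an ETS core favoured by the myeloid factor PU.1, and for GTAAACA, a forkhead motif. Capitals mark GAGGAA or its reverse complement TTCCTC, which 23.3% of all 32851 windows hold.

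Inpp5d, chr1:87620062-87620311, plus strand: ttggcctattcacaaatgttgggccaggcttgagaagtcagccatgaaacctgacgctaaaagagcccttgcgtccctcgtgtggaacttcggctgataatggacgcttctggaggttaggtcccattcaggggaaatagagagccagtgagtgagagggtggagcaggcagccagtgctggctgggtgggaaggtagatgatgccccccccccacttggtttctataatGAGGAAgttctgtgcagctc
Pik3cg, chr12:32208471-32208720, minus strand: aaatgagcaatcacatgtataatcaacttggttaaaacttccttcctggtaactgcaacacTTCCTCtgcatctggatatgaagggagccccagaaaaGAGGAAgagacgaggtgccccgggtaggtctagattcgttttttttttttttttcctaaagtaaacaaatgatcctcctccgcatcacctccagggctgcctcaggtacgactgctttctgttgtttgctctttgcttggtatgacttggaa
Pik3cd, chr4:149698709-149698958, minus strand: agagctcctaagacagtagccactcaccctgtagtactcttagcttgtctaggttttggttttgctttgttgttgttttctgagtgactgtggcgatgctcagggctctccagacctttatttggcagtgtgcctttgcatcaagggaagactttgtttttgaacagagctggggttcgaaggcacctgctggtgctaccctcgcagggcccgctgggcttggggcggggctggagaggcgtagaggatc

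The Inpp5d window held 1 match near the start site and this Pik3cg window 2. The other Pik3cg window held none, and none of the 3 Pik3cd windows held one. Inpp4b had 2 matches in its window, and Pik3r3, which fell, had 1 in each of 2 of its 3 windows. No window of Pik3r1, Pik3r2 or Pik3r5 held a match. GTAAACA or TGTTTAC, present in 3.2% of all windows, was found in the printed Pik3cg window and in no other member window. A match describes letters and not binding, and the expression data do not measure these windows.

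Pik3cd, encoding p110δ, rose 1.83-fold in mean level after acute deletion. Its normalized counts were 2337, 2349, 1912, 2053, 2147 and 2319 in controls 1 to 6 and 3411, 4904, 4448 and 3223 in KO 1 to 4. The highest control lay well below the lowest KO library, and KO 2 and 3 were the highest. The means were 2186 ± 180 (SD, n = 6) and 3996 ± 810 (SD, n = 4), a log2 fold change of 0.85 (SE 0.11, adjusted p = 0.000211 by limma). Without KO 2 and 3 it was 0.61 (SE 0.08, adjusted p = 0.000823).

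Pik3cg, encoding p110γ, rose by a smaller amount. Controls had 1025, 1180, 1084, 1156, 1122 and 1181 normalized counts, and KO libraries had 1347, 1505, 1415 and 1348. The groups did not overlap, and KO libraries lay close to each other. The means were 1125 ± 61.3 (SD, n = 6) and 1404 ± 74.3 (SD, n = 4), a log2 fold change of 0.32 (SE 0.06, adjusted p = 0.00137 by limma).

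Among class IA regulatory subunits, Pik3r3 fell while its relatives did not pass the test. Pik3r3 encodes p55γ, a short regulatory subunit without the amino-terminal SH3 and BH domains of p85. Its normalized counts were 620, 462, 419, 441, 529 and 400 in controls and 287, 209, 204 and 250 in KO libraries. Every KO library was below every control, and the mean went from 478 ± 82.5 (SD, n = 6) to 237 ± 39.0 (SD, n = 4), 49.6% of control. The log2 fold change was -1.005 (SE 0.14, adjusted p = 0.000257 by limma), set beside a median of -0.33 over the T-lineage markers. It was -0.63 (SE 0.15, adjusted p = 0.00591) after scaling to Trbc1 and Trbc2, and -0.82 (SE 0.15, adjusted p = 0.00573) without KO 2 and 3.

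Pik3r1 encodes p85α and, from internal starts, the shorter p55α and p50α, which one gene-level value cannot separate. It ranged from 2951 to 3598 in acute controls, with a median of 3340, and was 3217, 3329, 3700 and 4000 in KO libraries. The groups overlapped (log2 fold change 0.09, SE 0.07, adjusted p = 0.373). Pik3r2, encoding p85β, ranged from 1352 to 1691 in controls and was 1415, 1221, 1376 and 1177 in KO libraries (log2 fold change -0.20, SE 0.08, adjusted p = 0.0718). The Pik3r2 difference passed the threshold after quantile normalization (-0.22, adjusted p = 0.0437) and without KO 1 (-0.24, adjusted p = 0.0416), and was 0.18 (adjusted p = 0.245) after scaling to Trbc1 and Trbc2.

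The class IB regulatory subunits, whose genes are neighbours on mouse chromosome 11 in the RefSeq annotation of GRCm38.p6, differed from each other. Pik3r6, encoding p84, had 0, 8.86, 15.8, 11.8, 0 and 15.8 normalized counts in acute controls and 85.2, 295, 196 and 96.6 in KO libraries. It was at or near 0 in controls and highest in KO 2 and 3. The means were 8.72 ± 7.25 (SD, n = 6) and 168 ± 98.0 (SD, n = 4), a 19.3-fold ratio of means. The fitted log2 fold change of 4.70 (SE 0.88, adjusted p = 0.00204) depends on the pseudocount because 2 control libraries were listed at 0, and it is no support for a rise, since the gene entered the test only through its KO libraries. Pik3r5, encoding p101, ranged from 3315 to 3627 in controls, with a median of 3483, and was 3551, 3060, 3215 and 3518 in KO libraries. The Pik3r5 groups overlapped (log2 fold change -0.06, SE 0.05, adjusted p = 0.416), although the fold change was 0.31 (adjusted p = 0.00712) after scaling to Trbc1 and Trbc2.

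Both phosphatases rose. Inpp5d, encoding SHIP1, a 5-phosphatase of blood cells that counters PIP3, had 720, 808, 645, 705, 744 and 762 normalized counts in controls and 1207, 2402, 1851 and 1241 in KO libraries. Its KO libraries were all above the highest control, with KO 2 and 3 highest. The means were 731 ± 55.1 (SD, n = 6) and 1675 ± 567.7 (SD, n = 4), a 2.29-fold ratio and a log2 fold change of 1.14 (SE 0.17, adjusted p = 0.00041 by limma). Without KO 2 and 3 the log2 fold change was 0.75 (SE 0.08, adjusted p = 0.000264), a call that held at a value more than 1.5 times smaller.

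Inpp4b had 201, 171, 214, 215, 203 and 239 normalized counts in acute controls and 227, 299, 279 and 358 in KO libraries. KO 1 lay below control 6, so the groups overlapped, and KO 4 was the highest rather than KO 2 or 3. The means were 207 ± 22.1 (SD, n = 6) and 291 ± 54.3 (SD, n = 4), with a log2 fold change of 0.47 (SE 0.13, adjusted p = 0.0156 by limma). The call was lost after quantile normalization (0.28, SE 0.14, adjusted p = 0.129) and without KO 2 and 3 (0.47, SE 0.17, adjusted p = 0.107).

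**Figure D2:**
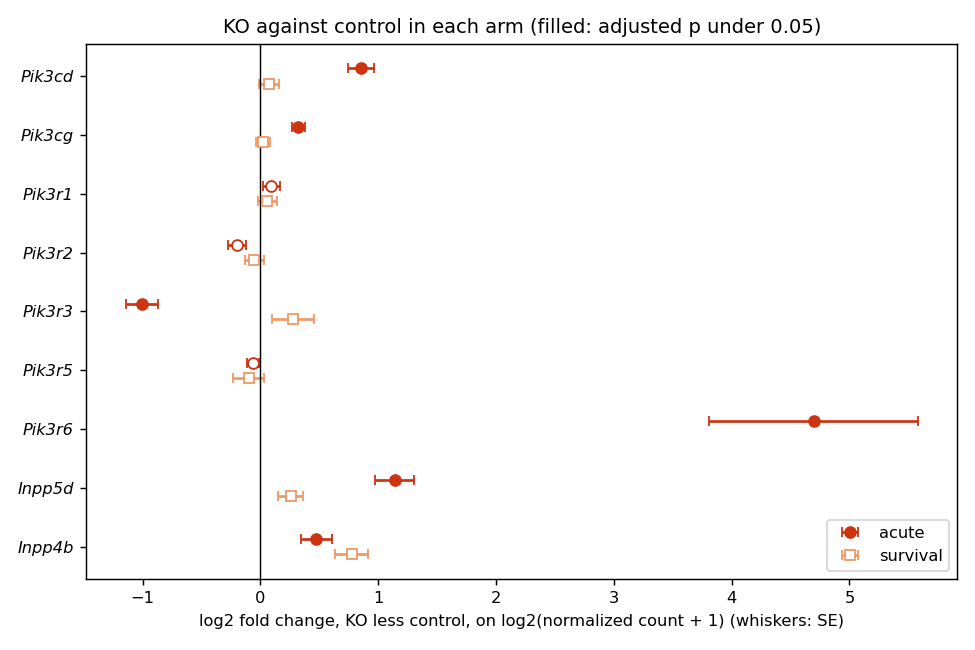
Log2 fold change of KO less control (horizontal axis, on log2(normalized count + 1)) with its SE for each member in the acute arm (circles) and the survival arm (squares); filled symbols have an adjusted p under 0.05. Of the acute fold changes 6 are filled, with Pik3r3 alone on the lower side, and none of the 8 survival fold changes is. Pik3r6, filled in the acute arm, entered that test only through its KO libraries and was not tested in the survival arm.

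Acute KO libraries 2 and 3 had the highest summed monocyte and macrophage markers and also the highest Pik3cd, Inpp5d and Pik3r6. With the group means removed, Pearson's r over the 20 libraries with the log2 sum of monocyte and macrophage markers was 0.71 for Pik3cd, 0.76 for Inpp5d, 0.39 for Pik3cg, -0.14 for Inpp4b and -0.35 for Pik3r3; these values describe libraries that share depth and scaling. With neutrophil markers the r was 0.23 for Pik3cd, 0.10 for Inpp5d and -0.63 for Pik3r3, with plasma-cell markers 0.67 for Pik3cd and 0.70 for Inpp5d, and with NK markers 0.60 and 0.72, so the monocyte values do not single out that list. Pik3r5 had -0.39 with monocyte and macrophage and 0.25 with T-lineage markers. With T-lineage markers the r was -0.48 for Pik3cd, -0.75 for Inpp5d, 0.45 for Pik3r3 and -0.33 for Inpp4b. When the non-T score entered the acute model as a covariate, the fold changes were 0.21 (SE 0.22) for Pik3cd, 0.05 (SE 0.13) for Pik3cg, -0.26 (SE 0.27) for Pik3r3, 0.63 (SE 1.95) for Pik3r6, -0.001 (SE 0.25) for Inpp5d and 0.44 (SE 0.34) for Inpp4b. In that fit limma called 0 members, with 0 at an unadjusted p under 0.05, and 0 of all 16363 genes, with 1201 at an unadjusted p under 0.05. Acute KO and control libraries share no range of this score, so score and genotype cannot be told apart there.

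**Figure D3:**
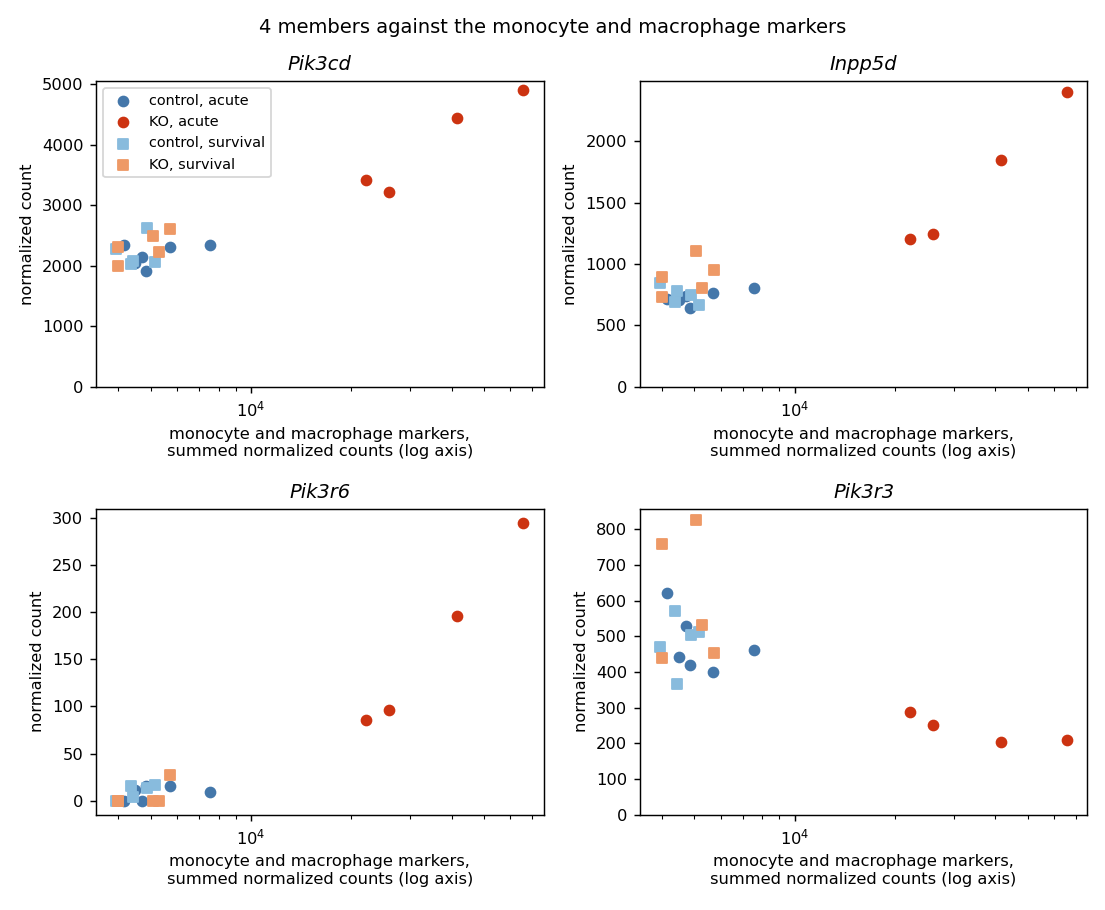
Normalized count of 4 members (vertical axes) against the summed normalized counts of monocyte and macrophage markers (horizontal log axis), 1 point per library, circles for the acute and squares for the survival arm. The 4 acute KO libraries, at 22164 to 65728 marker counts, hold the highest Pik3cd, Inpp5d and Pik3r6 and the lowest Pik3r3, and lie apart from all other libraries.

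Scaling moved the smaller differences. Scaling to Trbc1 and Trbc2 put the median of all acute fold changes at 0.35, and quantile normalization put it at -0.13, against -0.02 as deposited. Of the genes called, 53.1% were higher as deposited, 98.7% after scaling to Trbc1 and Trbc2, and 35.9% after quantile normalization. Pik3cd, Pik3cg and Inpp5d rose and Pik3r3 fell, each with an adjusted p under 0.05, under both scalings.

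**Figure D4:**
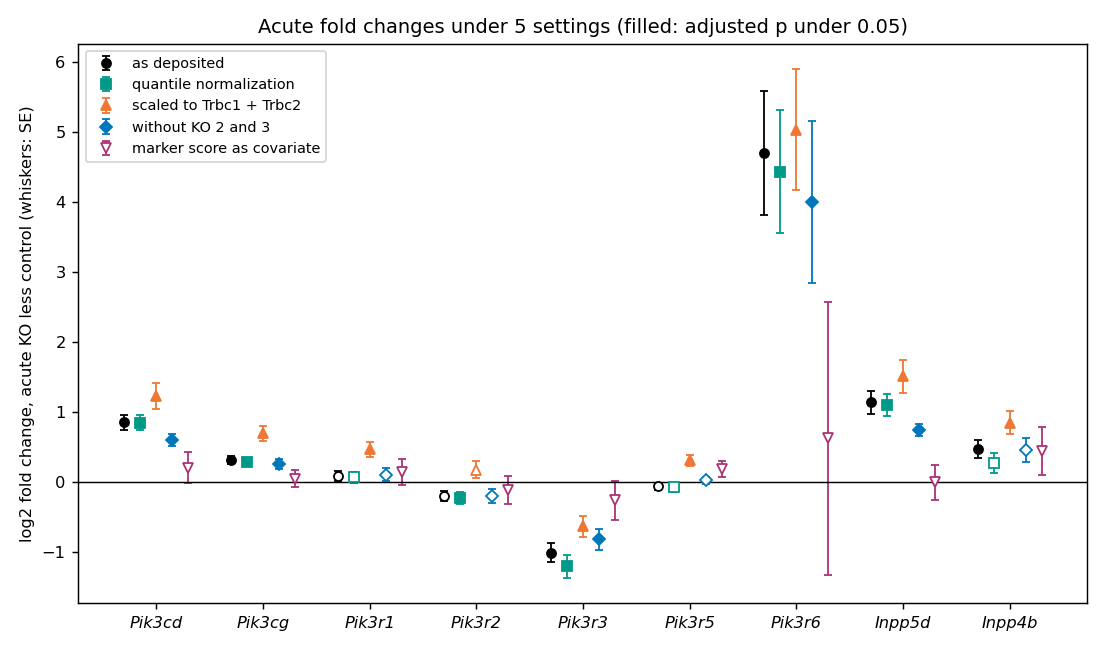
Acute log2 fold change of each member (vertical axis, with SE) as deposited and under 4 other settings, given by colour and symbol; filled symbols have an adjusted p under 0.05. Pik3cd, Pik3cg, Pik3r3 and Inpp5d stay filled under the 2 scalings and without KO 2 and 3, and no member is filled with the marker score as a covariate. Pik3r6 is also filled in those settings, but it entered the test only through the KO libraries in which it was high.

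Subunits were compared within each library by class, class IA (Pik3cd, Pik3r1, Pik3r2, Pik3r3) against class IB (Pik3cg, Pik3r5, Pik3r6), as differences of mean log2 values, which get no test because they combine members. Such a difference is not a ratio of molecules, since transcript lengths differ, and is read only between libraries. Class IB less class IA ran from -3.45 to -1.74 in acute controls (median -2.08) and from -0.97 to -0.37 in acute KO libraries (median -0.73), without overlap. Leaving out Pik3r6, the same difference was 0.18 to 0.55 in controls and 0.54 to 0.64 in KO libraries, which overlap. The catalytic pair went the other way, because Pik3cd rose more than Pik3cg: log2 Pik3cg less log2 Pik3cd was -1.19 to -0.82 in acute controls and -1.70 to -1.26 in KO libraries. Among class IA regulatory subunits, log2 Pik3r3 less log2 Pik3r1 was -3.10 to -2.39 in controls and -4.17 to -3.48 in KO libraries. Survival groups overlapped in each of these 4 differences.

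No member was called in the survival arm. limma called 0 of the 8 members tested and 0.0124% of all 16136 genes tested (0.0062% higher and 0.0062% lower), with 2 members (Inpp4b and Inpp5d) at an unadjusted p under 0.05, against 8.74% of all genes tested. The median log2 fold change was 0.07 over the members and 0.01 over all genes. Groups did not overlap for 1 member, against 2.01% of all genes tested (1.21% higher and 0.793% lower).

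That member was Inpp4b. It had 188, 242, 176, 275 and 159 normalized counts in survival controls 1 to 5 and 314, 351, 372, 346 and 368 in KO 1 to 5. All KO libraries lay above the highest control, and they were tightly grouped. The means were 208 ± 48.3 (SD, n = 5) and 350 ± 23.3 (SD, n = 5), a 1.68-fold ratio. The log2 fold change of 0.78 (SE 0.14) did not pass (adjusted p = 0.128 by limma). It passed with array weights (0.83, adjusted p = 0.0347 by limma) and without control 4, the highest control (0.88, adjusted p = 0.0183 by limma). Calls over all genes also rose there, from 2 as deposited to 11 with array weights and 23 without control 4. Stromal and endothelial markers summed to 5999 to 8735 in survival KO and 4734 to 6255 in controls. T-lineage markers summed to 252185 to 276081 in KO and 241657 to 279732 in controls, and erythroid markers to 44169 to 97494 and 16501 to 127252. Over all 20 libraries, with the group means removed, Pearson's r of Inpp4b was 0.60 with erythroid and 0.29 with stromal and endothelial markers. The part of these markers in the Inpp4b values was not tested.

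Inpp5d had 690, 778, 670, 843 and 745 normalized counts in survival controls and 955, 1106, 805, 729 and 893 in KO libraries (log2 fold change 0.26, SE 0.11, adjusted p = 0.5). Its groups overlapped. Pik3r3 had 570, 365, 512, 468 and 502 in controls and 453, 826, 532, 438 and 757 in KO libraries, where KO 2 and 5 stood above the rest (0.28, SE 0.18, adjusted p = 0.687). The catalytic subunits differed little between survival groups. Pik3cd ranged from 2032 to 2622 in controls and from 2000 to 2601 in KO libraries (0.07, SE 0.09, adjusted p = 0.83), and Pik3cg from 1154 to 1407 and from 1244 to 1348 (0.02, SE 0.06, adjusted p = 0.945).

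Pik3r1 ranged from 3459 to 4600 in survival controls and from 3641 to 4400 in KO libraries (0.06, SE 0.08, adjusted p = 0.855). Pik3r2 ranged from 1304 to 1702 and from 1342 to 1553 (-0.05, SE 0.08, adjusted p = 0.869). Pik3r5 ranged from 3429 to 4862 in controls and from 2941 to 4566 in KO libraries (-0.10, SE 0.13, adjusted p = 0.852). Pik3r6 was listed at 15.5, 4.35, 17.03, 0 and 13.8 in controls and at 27.0 in KO 1 and 0 in the other 4 KO libraries. Every one of these pairs of groups overlapped.

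The KO effect differed between the arms for 4 of the 8 members tested in both tables. The difference was taken as the survival minus the acute log2 fold change, each fitted within its own table. limma called it for 20.2% of 15673 genes, with 10.9% lower in the survival arm, and 33.4% had an unadjusted p under 0.05, as did the same 4 members. The difference was -0.88 for Inpp5d (SE 0.21, adjusted p = 0.00507), -0.78 for Pik3cd (SE 0.15, adjusted p = 0.00088) and -0.30 for Pik3cg (SE 0.08, adjusted p = 0.0108). For Pik3r3 it was 1.28 (SE 0.24, adjusted p = 0.000819), the acute fold change being negative and the survival one positive. Without acute KO 2 and 3 the difference was -0.49 for Inpp5d (adjusted p = 0.0563) and -0.24 for Pik3cg (adjusted p = 0.106), so neither passed. For Inpp4b the difference was 0.30 (SE 0.20, adjusted p = 0.303), with positive fold changes in both arms.

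The genes whose library-to-library pattern within groups was most like each member were taken by Pearson's r over 20 libraries with the group means removed, among 11220 genes. For Pik3cd they were Notch2 (0.93), Myh9 (0.92) and Junb (0.92), and for Inpp5d Orai1 (0.91), Laptm5 (0.90) and Myd88 (0.90). For Pik3r5 they were Kctd2 (0.91), Sytl3 (0.90) and Bcl2l1 (0.90), and for Pik3r2 Scap (0.91), Tjap1 (0.90) and Zfp777 (0.90). For Pik3r1 they were Pik3ip1 (0.82), the gene of a transmembrane inhibitor of PI3K, Rasl11b (0.82) and Zbtb20 (0.78). For Pik3r3 they were Slc23a2 (0.82), Dgke (0.80) and Zfp451 (0.76), for Inpp4b Dync1li2 (0.78), Cadm1 (0.78) and Dcaf10 (0.77), and for Pik3cg Jak1 (0.75), Selenbp1 (0.74) and Kit (0.74). Among the members themselves the closest pair was Pik3cd and Inpp5d (0.85), and Pik3cg and Pik3r3 were the most opposed (-0.55). These values rank many genes by likeness of pattern and share library scaling, so they carry no test and show no functional link.

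The other genes of the pathway were read from 6 lists of 96 genes, of which 95 were tested in the acute arm. limma called 30 higher and 11 lower, 43.2% of those tested, beside 31.4% of all genes. The list of other PI3K genes held further subunits, the adaptor Pik3ap1 and the inhibitor Pik3ip1, and 2 of 7 tested rose and 0 fell. Pik3cb, the p110β catalytic subunit, went from 65.4 ± 24.3 to 424 ± 266 (SD, n = 6 and 4, log2 fold change 2.54, SE 0.36). Pik3ap1, the B-cell adaptor BCAP and not a subunit, went from 161 ± 32.5 to 769 ± 372 (2.14, SE 0.27). No other subunit of that list was called. Among 21 other inositol lipid phosphatases 6 rose and 4 fell. Inpp4a, the paralog of Inpp4b, rose by 2.37 (SE 0.31), Synj1, a synaptojanin, by 0.43 (SE 0.10) and Inpp5b by 0.25 (SE 0.06), while Inppl1, encoding SHIP2, the paralog of SHIP1, was lower (-0.36, SE 0.08), as was Fig4 (-0.28, SE 0.05).

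Of 11 kinases that make the substrate and related lipids 4 rose and 0 fell, led by Pip5k1b (1.41, SE 0.25), a PIP 5-kinase, Pi4k2b (0.52, SE 0.14) and Pip4k2a (0.42, SE 0.08). Of 17 receptors and adaptors 5 rose and 1 fell. Dok3, an inhibitory adaptor of myeloid and B cells, rose by 3.20 (SE 0.34), Gab2, a docking adaptor for p85, by 1.70 (SE 0.22), and Kit, the stem cell factor receptor, by 1.61 (SE 0.26). Cd28, the T-cell costimulatory receptor, was lower (-0.34, SE 0.07). Of 28 effectors 9 rose and 4 fell, with Plcg2 (3.27, SE 0.32), Sgk3 (1.98, SE 0.22) and Btk (1.77, SE 0.23) rising and Mapkap1, a subunit of mTOR complex 2 (-0.31, SE 0.08), and the AKT phosphatase gene Phlpp1 (-0.26, SE 0.08) lower. The Pi4k2b, Mapkap1 and Phlpp1 calls were lost without KO 2 (adjusted p = 0.0538, 0.0547 and 0.105) and without KO 3 (0.062, 0.0591 and 0.0722), and that of Phlpp1 also without control 1, 2 or 6 (0.0566, 0.057 and 0.0616). Plcg2 and Btk act in B and myeloid cells, and the B-cell and monocyte markers moved with them; their part was not tested.

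Of 11 FOXO factors and targets, genes that FOXO1 sustains when PI3K signalling is low, 4 rose and 2 fell. Ccr7 (1.81, SE 0.32), Klf2 (1.55, SE 0.24) and S1pr1 (1.54, SE 0.26), which guide lymphocyte traffic, rose. B-cell and NK markers were also higher in the acute KO, and their part in these rises was not tested. Il7r, the interleukin-7 receptor, fell by 0.67 on the log2 scale (SE 0.11), and Sesn3 was lower (-0.31, SE 0.08). The medians of the 6 lists were 0.31, 0.06, 0.09, 0.31, 0.09 and 0.02 in the order given. Of the pathway genes named as lower, Inppl1, Fig4, Cd28, Mapkap1, Phlpp1 and Sesn3 had fold changes of 0.01 to 0.12 after scaling to Trbc1 and Trbc2, whereas Il7r was at -0.30 (adjusted p = 0.0172). Without acute KO 2 and 3, 18 pathway genes were called higher and 3 lower. In that fit 2079 of all 17248 genes tested were called, 66.7% of them higher, against 5140 and 53.1% as deposited.

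In the survival arm limma called 0 of the 92 pathway genes tested, with 17 at an unadjusted p under 0.05, and groups did not overlap for 6, against 2.01% of all genes tested. Of these, Icos, Cd28, Trat1 and Igf1r among receptors and adaptors and Ocrl among phosphatases are named after their values were seen. Icos, a costimulatory receptor that binds p85, had means of 76.8 in controls and 232 in KO libraries (log2 fold change 1.43, SE 0.32, adjusted p = 0.219), and Cd28 had 3497 and 4319 (0.31, SE 0.07, adjusted p = 0.19). Trat1, a T-cell receptor-associated adaptor, and Igf1r had positive fold changes (0.33 and 0.20), and Ocrl a negative one (-0.20).

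**Figure D5:**
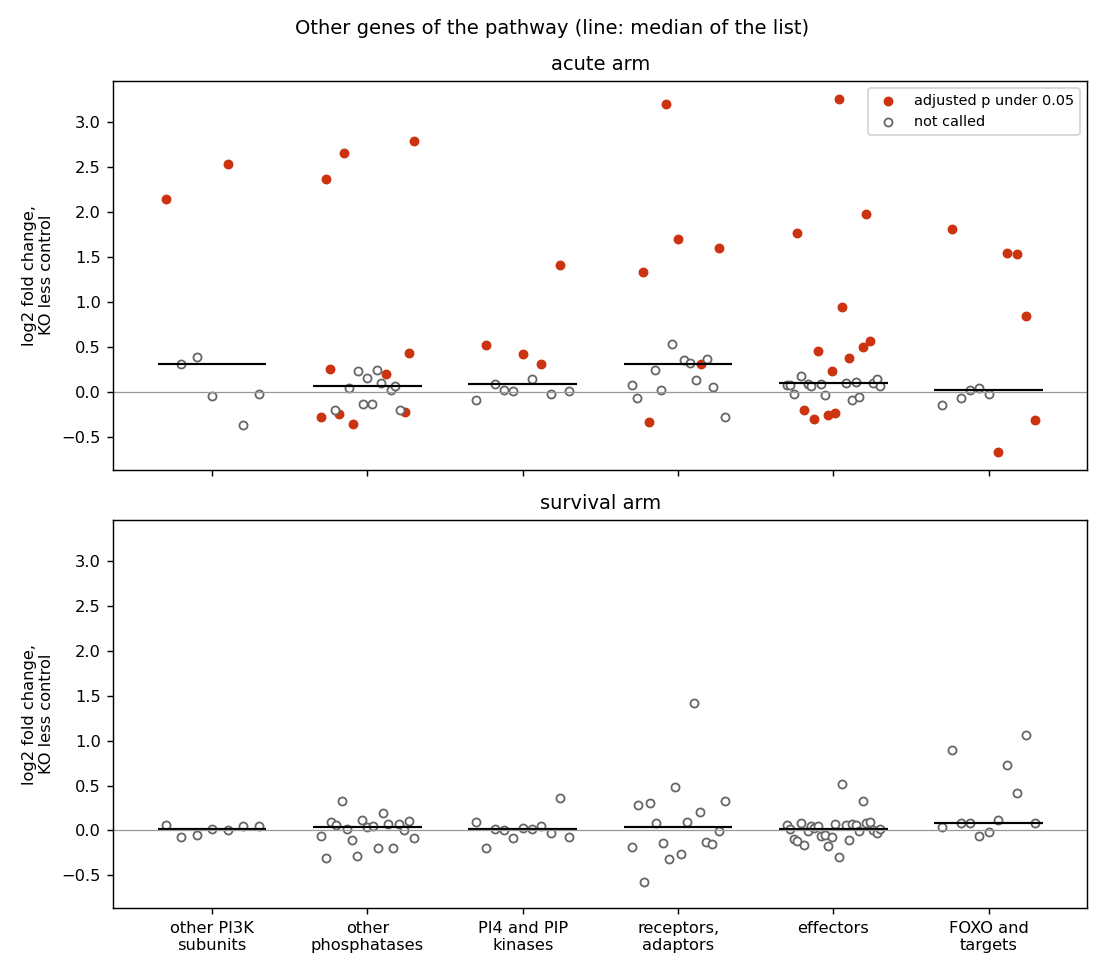
Log2 fold change of KO less control (vertical axes) for each tested gene of the 6 pathway lists, acute arm above and survival arm below; filled points have an adjusted p under 0.05 and lines are list medians. In the acute arm 30 genes are filled above 0 and 11 below, and in the survival arm none is filled.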

How the data were processed

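Polyadenylated RNA of 20 spleen samples was sequenced with strand kept. The authors deposited 2 tables, each a signal of DESeq-normalized counts per gene and library, scaled separately. Per the submitters' processing notes, kallisto 0.46.0, build GRCm39 and DESeq were used; annotation, gene-level summing and filters: not given in the sources used here. Values are not whole: 60.5 to 85.1% of low values (under 10 steps) lay within 0.1 of a whole multiple of the commonest low step, so reads were not recovered, no count test was run and sequencing depth was not derived.

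From log2(normalized count + 1), limma 3.58.1 in R 4.3.3 (lmFit, eBayes with trend) compared KO with control in each arm, without block or covariate, and the fold changes between arms over all 20 libraries. Two-sided p-values were adjusted by Benjamini-Hochberg over all genes tested. The fit was tested on simulated data, with both groups drawn from the means and SDs of the controls. Changed genes had a control mean of at least 50, with 50 genes at each fold change of 1.25, 1.5, 2 and 4. At a 1.5-fold change the fit recovered 76% of 50 changed genes among 16363 in the acute design and 74% of 50 among 16136 in the survival design. The wider spread of acute KO libraries, as for Pik3cd and Inpp5d, was not simulated. These shares are therefore not the power in the real data. Within each arm no 2 libraries were identical, and libraries were not compared between arms.

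The members and lists were chosen with earlier results of these data known. Named pathway genes were up to 3 largest rises and 2 largest falls per list and arm among called genes with a mean of at least 50. The genes named as most like a member were the 3 of highest r. There were 11 marker lists and 6 pathway lists. Columns were matched to samples by the code in each sample's description and by table. Alternatives changed the pseudocount (0.5 or 10), the filter (none or 50), the scaling, the trend, array weights, the marker-score covariate, the replicate block and the libraries included. One listed gene is counted but not reported here. Figures were drawn with matplotlib 3.10.9.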

Additional observations from a re-analysis of the deposited data

Results flagged for a closer look

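The KO effect differed between the arms, by limma's test of the survival less the acute log2 fold change, for Acly (-0.92), Inpp5d (-0.88), Pik3cd (-0.78), Pik3cg (-0.30) and Pik3r3 (1.28). Of 40 groups of 4 to 6 libraries checked for a sample far from the others, 2 held one, where chance flags about 1 in 20: Pik3r1 in survival control 4, at 4600 normalized counts, and Pik3r6 in survival KO 1, at 27.0.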

How the results depend on the processing

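Members' acute calls in the direction reported held under the pseudocounts, filters, trend, array weights and each single library left out; the cause of the changes below was not tested. In the acute arm, quantile normalization called 2 members lower, and scaling to Trbc1 and Trbc2 called 75 other pathway genes higher and 1 lower, put Acly at -0.0815 and turned Pik3r2 (0.179), Pik3r5 (0.315), Inppl1 (0.0144), Fig4 (0.0913), Cd28 (0.0359), Mapkap1 (0.0681), Phlpp1 (0.116) and Sesn3 (0.0645). With the non-T score as a covariate, 0 members and 0 other pathway genes were called in either direction, with 0 and 5 at an unadjusted p under 0.05; Acly was at -0.761 and Pik3r5 (0.191), Inpp5d (-0.00111), Pik3cb (-0.18), Pik3ap1 (-0.0122), Cd28 (0.068), Mapkap1 (0.119), Phlpp1 (0.0854), Klf2 (-0.0757) and Sesn3 (0.2) turned. Without KO 2 and 3, 18 other pathway genes were called higher and 3 lower, and Pik3r5 was at 0.0259. With single libraries left out, 1 to 2 members and 7 to 14 other pathway genes were called lower, the 7 without KO 2 or KO 3.

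In the survival arm, array weights called 1 member, Inpp4b, and 11 of all genes (2 as deposited). They put Pik3r2 at 0.00258 and Pik3r5 at 0.00253. Pik3cg was at -0.00484 after quantile normalization and ranged from -0.018 (without control 3) to 0.0533 (without control 4) over single libraries left out, and scaling to Trbc1 and Trbc2 put Pik3cd at -0.0117, Pik3cg at -0.064 and Pik3r1 at -0.026. Leaving out single libraries called 0 to 1 member and 1 to 23 of all genes. The adjusted p of Inpp4b by limma ranged from 0.0183 to 0.386 over its 20 alternatives.

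For the difference between arms, scaling to Trbc1 and Trbc2 called 5 members lower, 0 other pathway genes higher and 67 lower (9 and 21 as deposited). Pik3r2 was at -0.315 and Inpp4b at -0.157. Of all genes, 6956 were called under that scaling, 0.8% of them higher, against 3173 and 46.4% as deposited. The covariate called 0 members and 0 pathway genes in either direction, and 1 of all genes, with Acly at -0.577 and Inpp5d at 0.26. Without acute KO 2 and 3, 1251 of all genes were called, 30% of them higher. In that fit 1 member was called lower, and 3 other pathway genes were called higher and 9 lower. Without single libraries 4 to 10 were called higher, with 4 without KO 2 and 5 without KO 3. The uncalled Pik3r5 was at 0.0811 with array weights and from -0.104 to 0.0547 without single libraries; Pik3r1 ranged from -0.081 to 0.0319 without single libraries.

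All genes called in the acute arm numbered 5140 as deposited, 7449 scaled to Trbc1 and Trbc2, 6463 after quantile normalization, 2079 without KO 2 and 3, and 3294 with the replicate block. Same-numbered libraries share only a number: their deviations correlated at -0.07 to 0.14 (acute) and -0.02 to 0.13 (survival), and 1 of 9 KO libraries correlated best with its own number. With the replicate number as a block, 5 members (Pik3r6 included) were called higher and 1 lower in the acute arm, Acly was at -0.477, and no member's call changed in either arm. Sequencing depth is not known from these values, which limits what can be said of low genes such as Pik3r6.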
